A study of Mus musculus with 8 samples.

Results

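Closed neural tube was compared with open neural tube in mouse embryos of normal dams. The comparison rests on 4 of the 8 libraries of the series, chosen by their titles: libraries 11 and 12 hold closed tissue and libraries 09 and 10 hold open tissue. FVB embryos were taken at day 8.5 of gestation, and the neural tube was cut out of cryosections by laser, just behind the front edge of closure site 1 for the closed tissue and just in front of it for the open tissue. The 4 other libraries come from the same regions of embryos of diabetic dams, closed in libraries 15 and 16 and open in libraries 13 and 14. They share in the estimate of the spread and give the same regional comparison in libraries that the first comparison does not use. Nothing in the labels gives the number of embryos or litters behind a library, or tells if both regions were taken from the same animals. What the p-values measure is thus only the spread between these libraries, which may be technical. Closed and open tissue also lie at different levels of the body axis, and closure and axial level cannot be told apart in this design.

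The neural tube forms when the neural plate bends and its edges, the neural folds, meet and fuse in the dorsal midline. In the mouse, fusion starts at closure site 1, near the boundary of future hindbrain and spinal cord, and spreads from there in both directions, while the folds of the brain still stand open. Sonic hedgehog from the notochord below patterns the ventral tube, bone morphogenetic proteins (BMPs) and Wnts pattern the dorsal edge, and the surface ectoderm that fuses over the tube is a separate epithelium.

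The assay counts 1 short tag for each transcript. In this kind of library, known as SAGE, the cDNA is cut at CATG and the stretch that follows the CATG nearest the 3′ end is sequenced. The expected tags of 7 genes on which the results below turn, and of 1 gene that shows a limit of the method, were read from GENCODE M21 transcripts (assembly GRCm38, longest protein-coding transcript), 27 bases each. They are written 5′ to 3′, and the capitals mark the cutting site.
Gli1: CATGaggtgcccagggatgggaggttt
Cdon: CATGattttatattaaaagagaatgct
Sema3a: CATGtattcagttgctaaatacacatt
Cdh1: CATGtaatgttgctagagtgacctttg
Pax1: CATGgctgcctttgaataaaggaaagt
Cks2: CATGcgctgtattcttcacagcaacag
Kif18a: CATGtcattttactttctaaaacattg
Gapdh: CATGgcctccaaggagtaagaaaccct
The first 7 tags lie in 3′ untranslated regions, of genes on chromosomes 10, 9, 5, 8, 2, 13 and 2, and no transcript of another gene holds them. Apart from Cks2, each was found in only some annotated transcripts of its own gene. It was in 1 of 5 for Gli1, 2 of 6 for Cdon and 1 of 9 for Sema3a. For Cdh1 it was in 1 of 3, for Pax1 in 1 of 3 and for Kif18a in 1 of 6. The tag of Gapdh, a glycolytic enzyme gene with many processed copies, also occurs in transcripts of 6 other genes. Gapdh was listed at 0 in all 8 libraries, as were the glycolytic gene Eno1 and the myosin light chain gene Myl6. How tags that fit several genes were counted, and whether strand was used, is not given in the sources used here. A gene at 0 is thus not shown to be silent, and genes with near-identical copies, or overlapping or antisense partners, are uncertain.

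Library totals were 5615572 and 6753317 counts in closed tissue, and 10127618 and 5668054 counts in open tissue (5041586 to 16655583 over the series). Of 26608 genes listed, 13392 had a count in a library of normal dams and 11779 were tested. Open library 10 stood apart from the other 3. It had counts for 9920 genes, against 11006 to 11204 in the others, and the first principal component of the 4 libraries (51.2% of the variance) set it against libraries 11, 12 and 09, which lay together on the other side. Of the genes with at least 50 counts in open library 09, 6.44% had none in library 10. The same share was 1.22% from closed library 12 to 11 and 1.16% from 11 to 12. Because of this, values are given library by library and counts also without single libraries. Levels below are counts per 1000000 of the scaled library (CPM), always library 11 then 12 for closed tissue and library 09 then 10 for open tissue. A log2 fold change is closed minus open, and its standard error (SE) comes from edgeR. By Pearson's r of log2 CPM over the tested genes, the libraries did not group by region. Closed library 11 lay closer to open library 09 (0.852) than to closed library 12 (0.826). Library 09 lay closer to both closed libraries (0.852 and 0.850) than to open library 10 (0.787). Among genes of at least 50 CPM, library 12 stood at 1.63 on the first component, against -15.5 and -13.5 for libraries 11 and 09.

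Over all genes, no single gene passed the test. The edgeR quasi-likelihood test called 0 of 11779 genes (0%), and the adjusted p was 1.00 for every gene. An unadjusted p below 0.05 was reached by 400 genes (3.4%), 272 higher (2.31%) and 128 lower (1.09%) in closed tissue, where 589 would be expected with no difference at all. The count was 1472 without open library 09, 703 with DESeq2 and 245 from the 4 libraries of normal dams alone, so that its place above or below 589 rests on the setting. limma-voom called 0 genes (0%). DESeq2 called 33 (0.28%), 25 higher (0.212%) and 8 lower (0.0679%). The strongest DESeq2 calls were the heart and endoderm factors Gata6 and Gata4, and in these 4 libraries they hold no signal to speak of: Gata4 had 0 and 0 counts in closed tissue and 1 and 1 in open tissue, and Gata6 had 0 and 0, against 8 and 1. With 2 libraries a side, an exact permutation test of a single gene cannot go below p = 0.333 (two-sided). No gene is therefore said to have risen or fallen, and values are given as measured.

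How far apart the regions lay depended on how well a gene was counted. A gap of at least 2-fold means that the lower library of one region exceeded the higher library of the other by that factor, after 0.5 CPM was added. Such a gap was present in 473 genes with closed tissue above (4.02%) and 179 with closed tissue below (1.52%). Among 6814 genes with a mean of at least 10 CPM it was 50 (0.734%) and 32 (0.47%), and among 3176 genes of at least 50 CPM it was 3 (0.0945%) and 1 (0.0315%). None of 1819 genes of at least 100 CPM had one (0%). The median SE was 0.91 over all genes and 0.37 from 50 CPM upwards. Differences of several SE did not pass the test either, such as Sema3a at 2.63 (SE 0.78). Differences well above the SE could thus be missed as well.

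**Figure D1:**
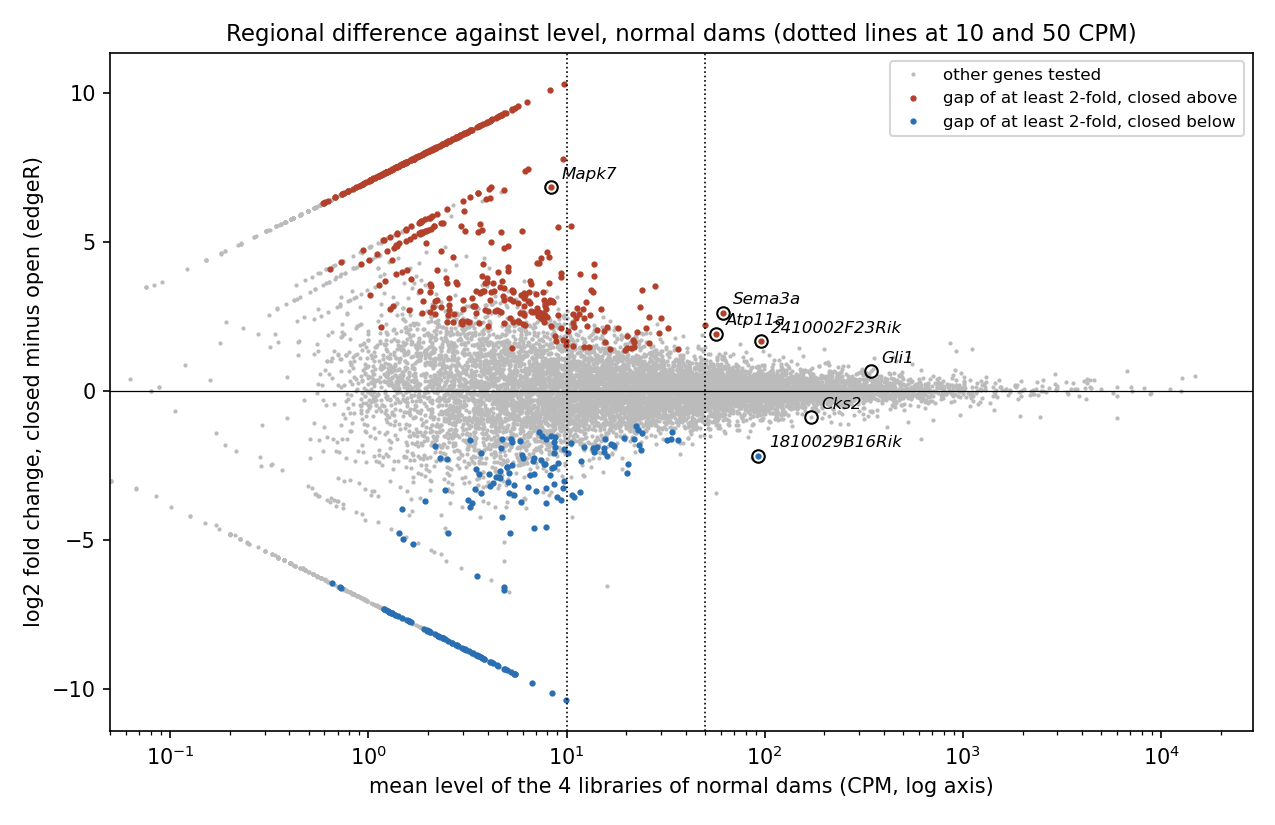
Log2 fold change (closed minus open, edgeR) of the 11779 tested genes against their mean level in the 4 libraries of normal dams (CPM, log axis), with genes past a 2-fold gap in red (closed above) and blue (closed below). Past 50 CPM only Sema3a, Atp11a, 2410002F23Rik and 1810029B16Rik are coloured. The straight diagonals at the edges are genes without a count in one region, or with 1 or 2 counts, whose fitted fold depends on the small count that edgeR adds.

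The 4 genes with a 2-fold gap above 50 CPM were few enough to name. Sema3a, a secreted cue that repels axons and migrating neural crest cells, stood at 103 and 108 CPM in closed tissue, against 15.6 and 18.5 CPM in open tissue. Both closed libraries lay far above both open ones, with a log2 fold change of 2.63 (SE 0.78). Atp11a, which flips lipids across membranes, stood at 83.3 and 96.2 CPM, against 16 and 31.4 CPM (1.93, SE 0.51). The uncharacterised 2410002F23Rik had 149.9 and 140.4 CPM in closed tissue, against 69.4 and 21.5 CPM in open tissue. On the lower side, 1810029B16Rik had 15.4 and 52.4 CPM, against 178 and 125 CPM (-2.16, SE 0.66). Both Atp11a and 2410002F23Rik were picked once their values had been seen.

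The dissected tissue carried the RNA of neural progenitors in both regions. Sox2, a factor of neural progenitors, stood at 400.0 and 425 CPM in closed tissue, against 559 and 276 CPM in open tissue. Sox11 stood at 2381 and 1706 CPM, against 1852 and 2146 CPM, and Lin28a, an RNA-binding protein of early progenitors, at 2469 and 1710.3 CPM, against 2363 and 2178 CPM. For these 3 genes the regions overlapped and the log2 fold changes were -0.02 (SE 0.84), 0.03 (SE 0.26) and -0.12 (SE 0.28). Markers of other tissues were present at far lower summed levels, and the sums for surface ectoderm and paraxial mesoderm are given further below. Sums over lists of different genes do not measure the share of each tissue. The 25 neural progenitor genes summed to 7042 and 5849 CPM in closed tissue, against 6707 and 5993 CPM in open tissue. Endothelial genes summed to 88.5 and 72.0 CPM, against 92.1 and 104 CPM, and 7 of the 22 were above 0 in library 12 and in library 10. Gut endoderm genes summed to 166 and 197 CPM, against 110.5 and 175 CPM. Heart genes summed to 30.1 and 25.5 CPM, against 18.2 and 6.28 CPM, and Nkx2-5, Hand1 and Hand2 were not among those tested. Primitive blood genes summed to 87.4 and 152.7 CPM, against 127 and 94.7 CPM. In 3 of the 4 libraries most of that sum was Car2, at 72.2 and 129 CPM, against 50.6 and 79.1 CPM. The embryonic globin Hba-x had 0.363 and 0.304 CPM, against 62.7 and 1.02 CPM. Open library 09 alone was high in Hba-x, which there exceeded Car2.

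Several genes of the Hedgehog pathway had higher levels in closed tissue. Of 24 listed genes 20 were tested, and 8 of them had both closed libraries above both open ones (40%, against 15.9% of all genes tested). None had both closed libraries below both open ones (0%, against 12.6% of all genes). The median log2 fold change was 0.29, against 0.04 over all genes, of which 52.2% had a positive one. Several genes below belong to more than 1 list, so the lists are not independent of each other. No member passed the edgeR test.

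Gli1, the transcription factor whose own transcription follows the pathway's activity, stood at 445 and 399 CPM in closed tissue, against 247 and 283 CPM in open tissue. The lowest closed library was well above the highest open one, for a log2 fold change of 0.67 (SE 0.25). Cdon, a co-receptor that binds the ligand, stood at 169 and 166 CPM, against 79.1 and 101 CPM (0.90, SE 0.34). Smo, the membrane protein that passes the signal on, had 215 and 275 CPM, against 193 and 178 CPM. Gli2, the main activator, had 381 and 399 CPM, against 279.9 and 307 CPM, and Gli3, mostly a repressor, had 101 and 82.7 CPM, against 78.3 and 81.3 CPM. These 3 differences were small, at 0.40 (SE 0.29), 0.41 (SE 0.32) and 0.20 (SE 0.35). Tulp3, an inhibitor at the cilium, and Hhat, which attaches a lipid to the ligand, were also without overlap. Their highest levels were 83.8 CPM in Tulp3 and 19.8 CPM in Hhat, and library 10 had no count of Hhat. The ligand Shh and the receptor Ptch1 were barely counted: Shh had 8.53 and 5.16 CPM, against 0 and 11.5 CPM, and Ptch1 had 0 and 1.52 CPM, against 5.12 and 0 CPM. The co-receptor Gas1 stood at 30.1 and 45.7 CPM in closed tissue, against 29.8 and 79.7 CPM in open tissue, with overlap. Without open library 10 the count was 14 of 20 (28.5% of all genes tested), and without open library 09 it was 8 higher (35.9% of all genes) and 6 lower (31.5%). It was 10 of 20 without library 11 (33.4% of all genes) and 10 without library 12 (32.5%). Without library 09 the shares of the list, 40% and 30%, were close to those of all genes.

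**Figure D2:**
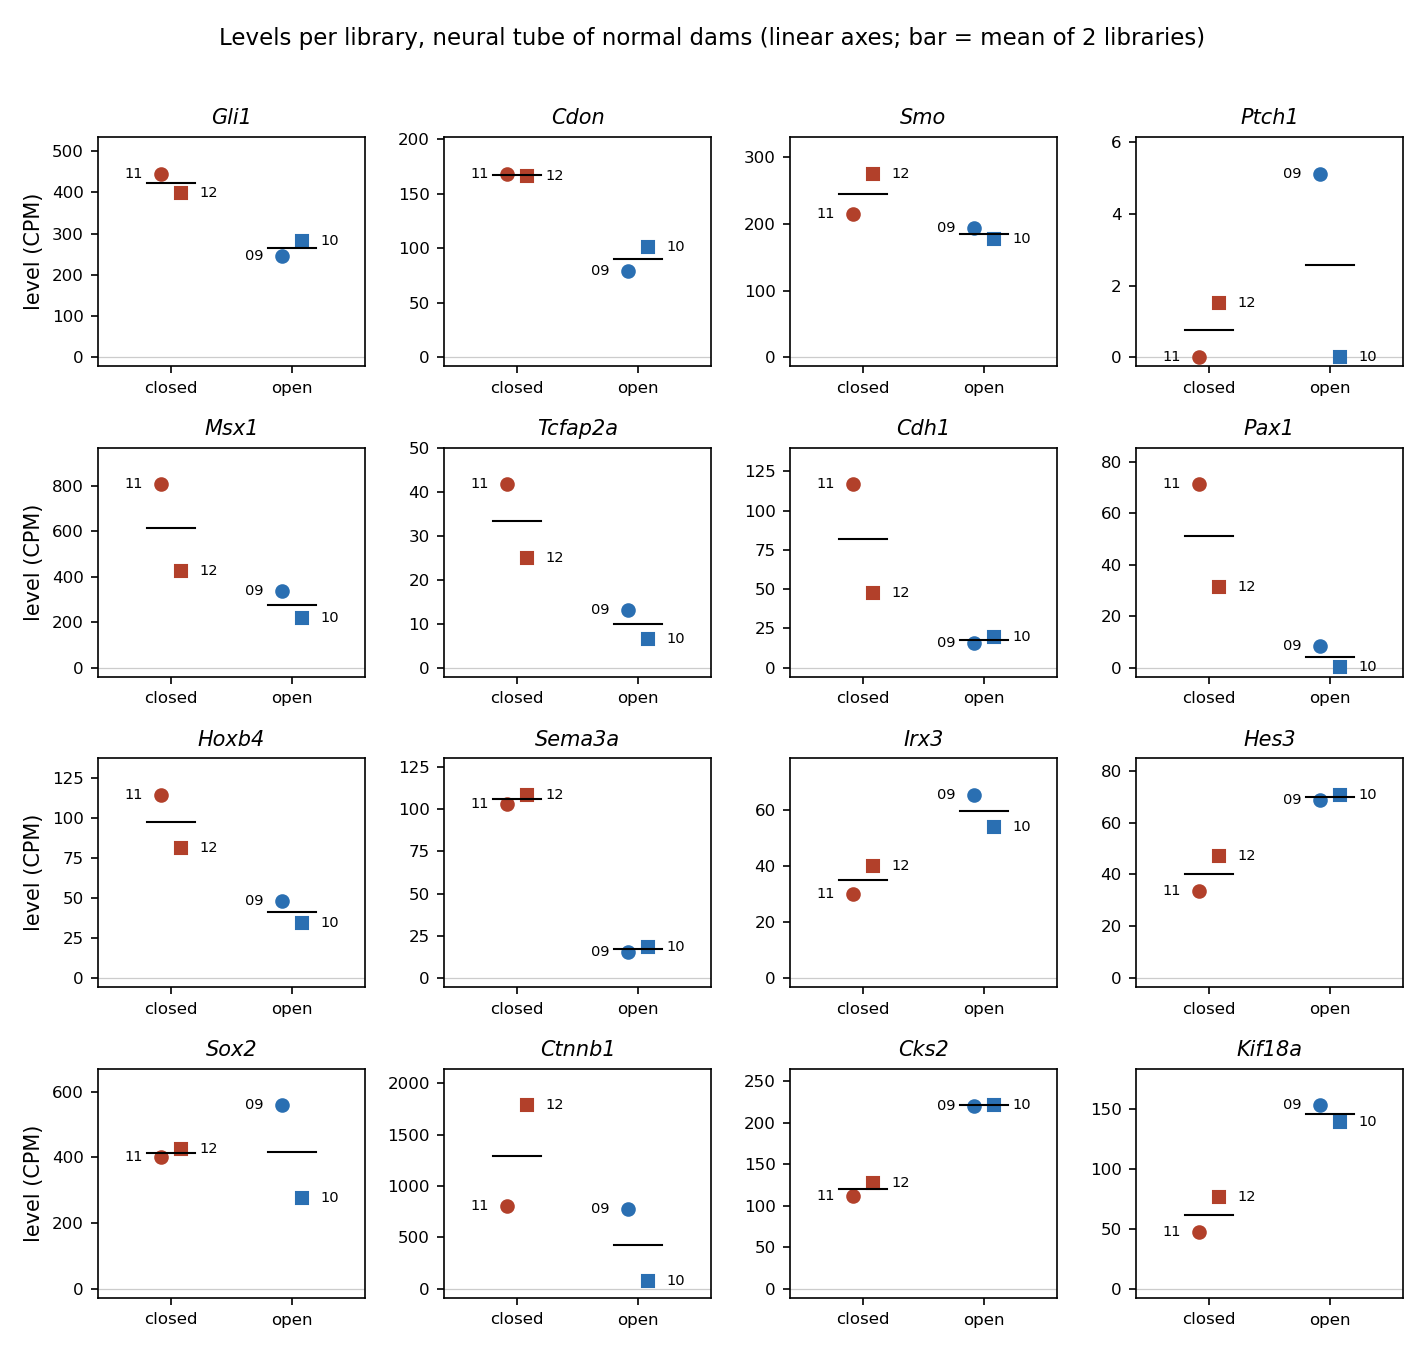
Level in CPM (linear axes) of 16 genes in closed libraries 11 and 12 (red, left) and open libraries 09 and 10 (blue, right) of normal dams, each point 1 library and each bar the mean of 2. Gli1, Cdon, Sema3a and Cks2 are tight within each region, while Cdh1, Msx1 and Ctnnb1 differ widely between libraries of the same region.

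Among dorsal neural tube and crest genes more stood higher than lower in closed tissue. All 32 listed genes were found in the files and 27 were tested: 7 had both closed libraries above both open ones (25.9%) and 1 had them below (3.7%), against 15.9% and 12.6% of all genes, with a median log2 fold change of 0.71. For the 7 members with a mean of at least 50 CPM the median was only 0.10. Of the 27 tested, 4 had no count in one region and more than 3 in the other. Msx1, a BMP-responsive factor of the dorsal midline, stood at 806 and 424 CPM, against 335 and 219 CPM. The closed libraries differed from each other by nearly as much as the regions did, and the log2 fold change was 1.15 (SE 0.59). Sox9, a factor of neural crest cells before they leave, stood at 117 and 69.2 CPM, against 38.7 and 64.6 CPM (0.85, SE 0.44). Tcfap2a, needed in both neural crest and surface ectoderm, stood at 41.7 and 24.9 CPM, against 13.2 and 6.62 CPM (1.75, SE 0.95). Zic2, a dorsal factor whose loss delays closure, stood at 45.9 and 72.4 CPM, against 26.4 and 35.0 CPM. Foxd3, an early crest factor, had 7 and 25 counts in closed tissue and none in open tissue, at least 13.4-fold higher when open tissue is set to 3 counts over both libraries.
Not every dorsal gene followed. Pax3, which marks the dorsal tube and is mutated in the Splotch mouse, stood at 76.4 and 101 CPM, against 57.6 and 108 CPM (0.10, SE 0.69). Zic1 stood at 152 and 168 CPM, against 358 and 101 CPM. The single member without overlap on the lower side was Crabp1, a retinoic acid binding protein of hindbrain neural crest, at 5419.9 and 2918 CPM, against 9643 and 5880.2 CPM (-0.90, SE 0.95). Counts of higher members ran from 10 to 14 of 27 without 1 library, beside 28.5% to 35.9% of all genes: 11 without library 11, 14 without 12, 10 without 09 and 13 without 10. Without library 09, 10 of 27 (37%) is close to the share of all genes.

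Markers of surface ectoderm, the epithelium that covers the closing tube, lay mostly on the higher side in closed tissue. Of 37 listed genes 26 were tested, and 9 had both closed libraries above both open ones (34.6%) while none had them below (0%), against 15.9% and 12.6% of all genes. The median log2 fold change was 1.30. In such bulk tissue, fewer cells of a type and less RNA per cell cannot be told apart. Cdh1, the epithelial cadherin, stood at 117 and 47.5 CPM in closed tissue, against 15.6 and 19.3 CPM in open tissue (2.24, SE 0.65). Library 11 was far above library 12, and both lay above the open libraries. Dsp, the desmosome protein desmoplakin, stood at 96.2 and 39.8 CPM, against 26.4 and 21.2 CPM (1.51, SE 0.89). Epcam, an epithelial adhesion protein, stood at 24.3 and 10.9 CPM, against 2.21 and 0.170 CPM, and the tight junction gene Cldn7 at 21.8 and 16.1 CPM, against 8.04 and 3.90 CPM. Perp, a desmosome gene, had 35 and 23 counts, against 0 and 0, at least 26.0-fold higher with open tissue set to 3 counts. The keratins differed less: Krt18 stood at 77.1 and 31.0 CPM, against 28.2 and 30 CPM, and Krt17 at 27.8 and 33.7 CPM, against 52.3 and 32.1 CPM. Grhl3, a factor of surface ectoderm that closure requires, was low in every library, at 2.72 and 5.01 CPM, against 6.73 and 4.75 CPM.
The whole list of 37 genes summed to 550.2 and 326 CPM in closed tissue, against 206 and 217 CPM in open tissue. The counts of higher members were 12 of 26 without library 11, 16 without 12, 13 without 09 and 14 without 10, or 46.2% to 61.5%, beside 28.5% to 35.9% of all genes. The broader list of cadherins and cell adhesion had 9 of 36 tested genes higher (25%) and 1 lower (2.78%), against 15.9% and 12.6% of all genes. Without library 09 it had 14 higher (38.9%) and 11 lower (30.6%), close to the 35.9% and 31.5% of all genes. Among them were Cdh1 and the integrin Itgb5, at 18.5 and 16.4 CPM, against 8.04 and 5.09 CPM. The neural cadherin Cdh2 stood at 90.0 and 47.5 CPM, against 89.8 and 74.8 CPM. The part that surface ectoderm RNA plays in the other differences was not tested.

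Genes of paraxial mesoderm, the tissue beside the tube that forms somites, also lay mostly on the higher side. Of 34 listed genes 23 were tested: 8 had both closed libraries above both open ones (34.8%) and none below (0%), against 15.9% and 12.6% of all genes, with a median of 1.07. Pax1, a factor of the ventral somite, stood at 71.3 and 31.4 CPM, against 8.44 and 0.170 CPM (3.51, SE 1.37). Pdgfra, a receptor of mesenchymal cells, stood at 90.3 and 55.4 CPM, against 30.4 and 31.1 CPM (1.24, SE 0.69). Aldh1a2, the enzyme that makes retinoic acid in somites, stood at 115 and 117 CPM, against 33.9 and 77.0 CPM (1.07, SE 1.42). Prrx1, a mesenchyme factor, had 15 and 21 counts, against 0 and 0, at least 15.6-fold higher with open tissue set to 3 counts.
Meox1, a general somite factor, overlapped between the regions, at 62.6 and 77.9 CPM, against 56.2 and 141 CPM, and Foxc2 stood at 35.4 and 39.0 CPM, against 7.93 and 73.1 CPM. For both genes the open libraries differed more from each other than from the closed ones. The 34 genes together summed to 600.3 and 455 CPM in closed tissue, against 207 and 494 CPM in open tissue, so that open library 10 lay within the closed range and library 09 below it. Without library 10 the count was 17 of 23 higher (73.9%, against 28.5% of all genes). Without library 09 it was 10 higher and 6 lower (43.5% and 26.1%, against 35.9% and 31.5% of all genes). The higher count was 11 without library 11 (47.8%, against 33.4% of all genes) and 13 without library 12 (56.5%, against 32.5%).

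**Figure D3:**
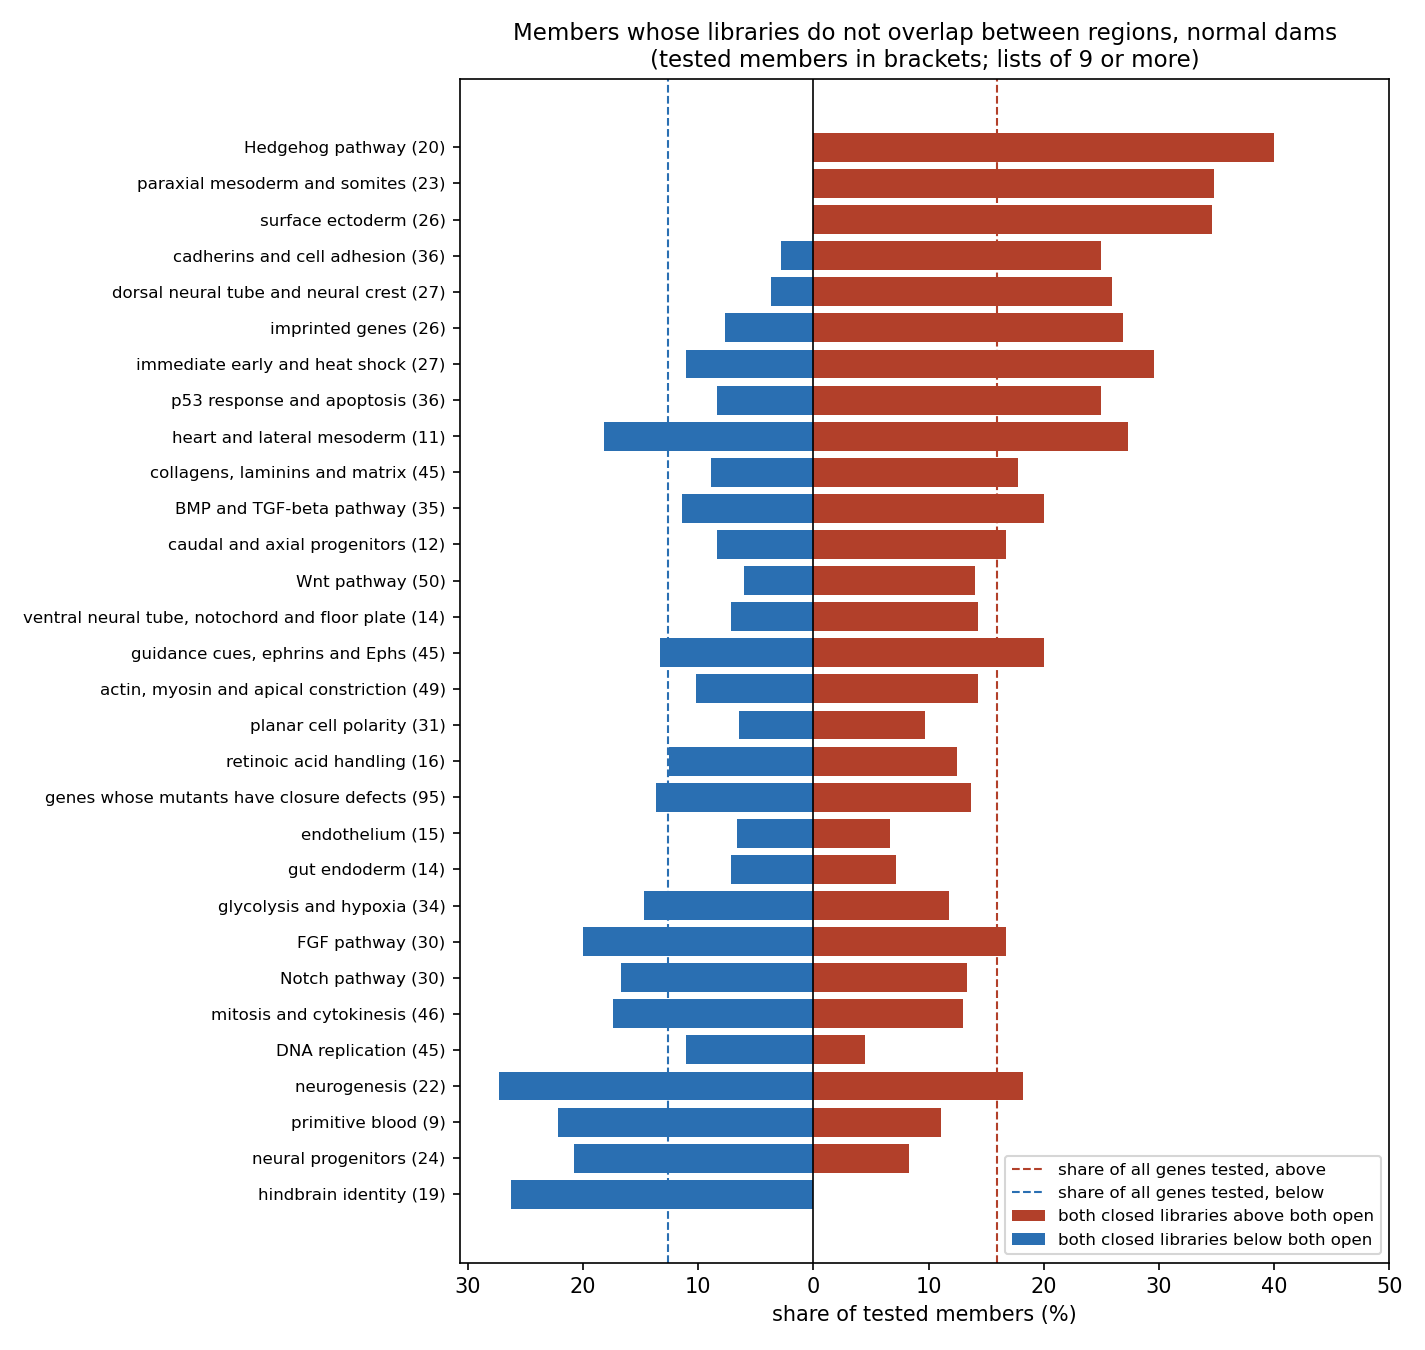
Share of the tested members of each gene list with at least 9 of them tested whose closed libraries both lie above (red, right) or below (blue, left) both open libraries of normal dams, with the number tested in brackets and the shares of all genes (15.9% and 12.6%) as dashed lines. Among these lists, Hedgehog, paraxial mesoderm and surface ectoderm genes have the longest red bars and no blue one, and hindbrain genes have a blue bar only.

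Genes that mark axial level differed in both directions. Hox genes are switched on in sequence along the body, low paralogue numbers first in the hindbrain and higher ones further back. Of 7 tested Hox genes of paralogue groups 4 to 6, 3 stood higher without overlap (42.9%) and 1 lower (14.3%), against 15.9% and 12.6% of all genes, with a median of 1.75. Hoxb4, expressed from the rear hindbrain backwards, stood at 114 and 80.9 CPM in closed tissue, against 48.4 and 34.4 CPM in open tissue (1.23, SE 0.77). Hoxc4 stood at 8.35 and 4.1 CPM, against 2.71 and 0.170 CPM, and Hoxa5 at 9.07 and 4.40 CPM, against 3.31 and 0.170 CPM. Hoxa4 was the exception, at 1.45 and 0.607 CPM, against 6.93 and 7.30 CPM (-2.78, SE 1.16). Of paralogue groups 1 to 3, 1 of 6 tested genes stood higher (16.7%), with a median of 0.01. That gene was Hoxb1, at 6.35 and 11.5 CPM, against 1.21 and 0.339 CPM (3.47, SE 1.54). Of 21 genes of groups 7 to 13, 12 had no count in any of the 8 libraries and 3 were tested.

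Hindbrain identity genes had members on the lower side only, as long as all 4 libraries were compared. Of 25 listed genes 19 were tested: none had both closed libraries above both open ones (0%), and 5 had them below (26.3%), against 15.9% and 12.6% of all genes, with a median of -0.14. Efnb3, a membrane-bound guidance cue, stood at 17.6 and 10.5 CPM in closed tissue, against 26.2 and 36.8 CPM in open tissue (-1.17, SE 0.73). Zfp503, a zinc finger protein, stood at 49.2 and 62.8 CPM, against 111 and 67.7 CPM. Rarb, a retinoic acid receptor of the rear hindbrain, stood at 112 and 97.2 CPM, against 114 and 159 CPM, and Fgf3 at 0.363 and 1.21 CPM, against 3.01 and 4.58 CPM. Egr2 and the forebrain and midbrain factor Otx2 had no count in any of the 4 libraries of normal dams and were not tested. Of the 5 forebrain and midbrain genes tested, none stood higher without overlap (0%) and 2 lower (40%), against 15.9% and 12.6% of all genes. Their median was -0.03, and 2 of the 5 had a positive log2 fold change. The 2 lower ones were Irx2, at 33.4 and 38.1 CPM against 66.9 and 52.8 CPM, and Irx3, at 29.9 and 40.1 CPM against 65.4 and 54.0 CPM. The lower hindbrain count was 13 of 19 without library 10 (68.4%, against 29.7% of all genes) and 6 of 19 without library 09 (31.6%, against 31.5%). It was 5 without library 11 (26.3%, against 25.1% of all genes) and 7 without library 12 (36.8%, against 25.7%). Without library 11 the lower share was thus close to that of all genes. Without library 09 the balance turned, with 8 of 19 higher (42.1%, against 35.9% of all genes).
Of 12 tested caudal progenitor genes 2 stood higher without overlap (16.7%) and 1 lower (8.33%). Over all genes, 15.9% stood higher and 12.6% lower, which also stands beside the ventral and retinoic acid counts below. Cdx2, a factor of the posterior body, stood at 0.363 and 3.64 CPM, against 1.00 and 1.87 CPM. T, the mesoderm factor Brachyury, stood at 23.2 and 12.3 CPM, against 0.301 and 16.3 CPM, and Hes3, a repressor that holds back neuronal differentiation, at 33.6 and 47.1 CPM, against 68.6 and 70.8 CPM (-0.79, SE 0.79). Of 14 tested genes of the ventral tube 2 stood higher (14.3%) and 1 lower (7.14%). Ntn1, the floor plate cue netrin, stood at 159.8 and 131 CPM, against 112 and 118 CPM (0.34, SE 0.36). Of 16 tested genes of retinoic acid handling 2 stood higher (12.5%) and 2 lower (12.5%).

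Genes of neural progenitors and young neurons lay on both sides. Of 24 tested progenitor genes 2 stood higher without overlap (8.33%) and 5 lower (20.8%), against 15.9% and 12.6% of all genes, with a median of -0.04. Without library 12 there were 10 higher (41.7%, against 32.5% of all genes) and 6 lower (25%, against 25.7%), the other way round. The same held without 09, with 10 higher (41.7%, against 35.9%) and 7 lower (29.2%, against 31.5%). Without library 11 there were 4 higher (16.7%, against 33.4%) and 11 lower (45.8%, against 25.1%). Without library 10 there were 4 higher (16.7%, against 28.5%) and 10 lower (41.7%, against 29.7%). Nes, the progenitor intermediate filament nestin, stood at 96.5 and 154 CPM in closed tissue, against 188 and 177 CPM in open tissue. Rfx4, a factor of the neural tube, stood at 78.6 and 118 CPM, against 156 and 144 CPM, and Prom1, a membrane protein of apical protrusions, at 8.16 and 10.9 CPM, against 21.1 and 30.9 CPM (-1.44, SE 0.73). The growth factor midkine, Mdk, stood higher, at 608 and 837 CPM, against 464 and 193 CPM (1.14, SE 0.39). Of 22 tested genes of neurogenesis 4 stood higher (18.2%) and 6 lower (27.3%), with a median of -0.40, or -0.29 with genes at 0 in a region set to their bound. Of these neurogenesis genes, 8 stood higher (36.4%, against 32.5% of all genes) and 7 lower (31.8%, against 25.7%) without library 12. Without 09 it was 6 higher (27.3%, against 35.9%) and 10 lower (45.5%, against 31.5%). Btg2, which marks progenitors about to make neurons, stood at 7.26 and 17.2 CPM, against 33.2 and 31.7 CPM (-1.41, SE 0.77). The neuronal genes Stmn2, at 9.25 and 15.5 CPM against 37.4 and 25.8 CPM, and Elavl3, at 5.99 and 10.2 CPM against 17.3 and 22.6 CPM, lay on the same side. Gap43, a gene of growing axons, lay on the other, at 4.35 and 14.3 CPM, against 4.32 and 0.509 CPM.

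Signalling genes were divided. In the Wnt list 7 of 50 tested genes stood higher (14%) and 3 lower (6%), near or below the 15.9% and 12.6% of all genes. Tnfrsf19, a receptor regulated by Wnt signals, stood at 107 and 117 CPM, against 55.4 and 19.2 CPM (1.58, SE 0.54), and Wls, which carries Wnt proteins to the surface, at 196 and 341 CPM, against 169 and 175 CPM (0.64, SE 0.33). Ctnnb1, β-catenin, was the least even of them: it stood at 802 and 1786 CPM in closed tissue, against 772 and 79.6 CPM in open tissue (1.60, SE 0.79). Libraries 11 and 09 had nearly the same Ctnnb1 level, so the difference came from a high library 12 and a low library 10.
In the list of BMPs and transforming growth factor beta 7 of 35 stood higher (20%) and 4 lower (11.4%). Over all genes, 15.9% stood higher and 12.6% lower, and these shares also stand beside the FGF and Notch counts below. Id1, a target of BMP signals, stood at 29.2 and 65.6 CPM, against 26.4 and 12.2 CPM (1.29, SE 0.54), while Id3 overlapped, at 1212 and 752 CPM, against 947 and 818 CPM. In the FGF list 5 of 30 stood higher (16.7%) and 6 lower (20%). The receptors Fgfr1, at 251 and 483 CPM against 240.2 and 235 CPM, and Fgfr2, at 492 and 399 CPM against 398 and 252 CPM, lay on the higher side. Etv5, a transcription factor induced by FGF, had 10.3 and 0.152 CPM, against 24.2 and 45.6 CPM (-2.74, SE 1.42), and the feedback inhibitor Il17rd had 0.363 and 0.911 CPM, against 7.23 and 1.53 CPM. In the Notch list 4 of 30 stood higher (13.3%) and 5 lower (16.7%). Its target Hes1 had 34.5 and 7.59 CPM, against 44.4 and 54.6 CPM, and Hes5 had 98.3 and 101 CPM, against 154 and 86.2 CPM.

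Guidance genes held Sema3a, described above, and a receptor without a count in closed tissue. Of 45 tested, 9 stood higher (20%) and 6 lower (13.3%), near the 15.9% and 12.6% of all genes. Sema3e, a second semaphorin, stood at 14.9 and 10.6 CPM in closed tissue, against 0.10 and 0 CPM in open tissue. Rgma, which binds neogenin and acts as a BMP co-receptor, stood at 34.8 and 9.11 CPM, against 2.31 and 0.509 CPM (3.93, SE 1.56). Ephb1, an ephrin receptor, had 0 and 0 counts in closed tissue, against 100 and 140 in open tissue, at least 68.2-fold lower when closed tissue is set to 3 counts over both libraries. Slit1 stood at 12.9 and 15.6 CPM, against 26.0 and 30.5 CPM (-0.99, SE 0.91).

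Genes known for their closure defects did not lean to either region. Of 95 tested genes listed for closure defects in mutant mice, 13 stood higher (13.7%) and 13 lower (13.7%), with a median of 0.03. Over all genes, 15.9% stood higher and 12.6% lower, which also stands beside the other list counts of this paragraph. Vangl2, the planar polarity gene mutated in Loop-tail mice, stood at 10.3 and 18.7 CPM, against 6.53 and 28.5 CPM (-0.27, SE 0.96). The planar polarity list had 3 of 31 higher (9.68%) and 2 lower (6.45%). Prickle1 stood at 25.0 and 48.0 CPM, against 10.5 and 15.3 CPM (1.5, SE 0.72), and Ankrd6, which ties planar polarity to Wnt signals, at 2.18 and 2.13 CPM, against 27.2 and 7.30 CPM (-3.00, SE 1.10). In the list of actin, myosin and apical constriction 7 of 49 stood higher (14.3%) and 5 lower (10.2%). Cofilin, Cfl1, stood at 2134 and 2445 CPM, against 2561 and 1927 CPM, and the tropomyosin Tpm4 at 62.4 and 77.4 CPM, against 53.5 and 26.0 CPM. Among 45 tested genes of collagens, laminins and matrix 8 stood higher (17.8%) and 4 lower (8.89%), with Col1a2 at 62.0 and 15.2 CPM, against 8.44 and 11.9 CPM, and the proteoglycan Agrn at 363 and 319 CPM, against 447 and 581 CPM. Wasl, an activator of actin branching, stood at 42.5 and 64.7 CPM, against 75.7 and 125 CPM (-0.90, SE 0.44).

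A few cell cycle and metabolic genes were separated between the regions. Of 46 tested mitosis genes 6 stood higher (13%) and 8 lower (17.4%), and of 45 replication genes 2 higher (4.44%) and 5 lower (11.1%), against 15.9% and 12.6% of all genes. Cks2, a subunit of the mitotic kinase, stood at 112 and 128 CPM in closed tissue, against 221 and 221 CPM in open tissue (-0.88, SE 0.27). Kif18a, a kinesin that aligns chromosomes, stood at 47.2 and 76.5 CPM, against 154 and 139 CPM (-1.24, SE 0.34). The replication clamp Pcna did not follow, at 1074 and 1021 CPM, against 1267 and 901 CPM (-0.05, SE 0.26). Prc1, of the mitotic midzone, lay on the other side, at 31.7 and 34.9 CPM, against 12.8 and 8.31 CPM (1.66, SE 0.66).
Of 34 genes of glycolysis and hypoxia 4 stood higher (11.8%) and 5 lower (14.7%), near the 15.9% and 12.6% of all genes. Egln1, the oxygen sensor that marks HIF for decay, stood at 136 and 135 CPM, against 270.1 and 241 CPM (-0.91, SE 0.36). Ldha, the most abundant gene of both open libraries, overlapped at 14841 and 10339 CPM, against 13534 and 11710.2 CPM. Ldhb had 60 and 73 counts in closed tissue, against 0 and 0, at least 58.0-fold higher with open tissue set to 3 counts. Sec11a, a subunit of the signal peptidase, stood at 138 and 145 CPM, against 316 and 264 CPM (-1.04, SE 0.26).
Of 27 immediate early and heat shock genes 8 stood higher (29.6%) and 3 lower (11.1%). Over all genes, 15.9% stood higher and 12.6% lower, which also stands beside the imprinted and p53 counts below. The chaperones Hspa8, at 39.9 and 52.8 CPM against 6.03 and 18.2 CPM (1.95, SE 0.55), and Dnajb1, at 14.9 and 12.6 CPM against 2.41 and 5.26 CPM, were among the 8 higher genes. Of 26 imprinted genes 7 stood higher (26.9%) and 2 lower (7.69%). Peg10, a paternally expressed gene of retrotransposon origin, stood at 68.0 and 38.6 CPM, against 14.4 and 9.84 CPM (2.13, SE 0.48), and DESeq2 called it (adjusted p = 0.0498). Gnas, a complex imprinted locus, stood at 1991 and 1233 CPM, against 227 and 979 CPM, and here library 09 was the low one. Of 36 genes of the p53 response 9 stood higher (25%) and 3 lower (8.33%). Without library 09 the shares of all genes were 35.9% higher and 31.5% lower. The stress genes then had 12 higher and 8 lower (44.4% and 29.6%). The imprinted genes had 9 and 7 (34.6% and 26.9%), close to or below the shares of all genes. The p53 response had 14 and 16 (38.9% and 44.4%).

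Many of the widest gaps were in genes with no count in one region, which does not show them to be silent there. Of 11779 tested genes, 231 had counts in both closed libraries and in neither open one, and 92 the other way round. The 231 include only genes at 0 in library 10, which had counts for the fewest genes of the 4. Without library 10, 28.5% of all genes stood higher without overlap and 29.7% lower, while 2-fold gaps numbered 970 higher and 660 lower. Mapk7, the kinase ERK5, had 107 and 91 counts in closed tissue, against 1 and 1 in open tissue. Shisa4, a transmembrane adaptor, had 97 and 102 counts, against 0 and 0, at least 87.4-fold higher with open tissue set to 3 counts. Trex1, a DNA exonuclease, had 115 and 117 counts, against 0 and 0, at least 102-fold higher on the same floor. Dag1, which makes dystroglycan, had 50 and 68 counts, against 0 and 0. In the other direction, Ttc17 had 0 and 0 counts in closed tissue, against 77 and 112 in open tissue, at least 53.9-fold lower with closed tissue set to 3 counts. The calcium channel Itpr1 had 0 and 0 counts, against 53 and 83. DESeq2 called these 6 genes (adjusted p = 0.00143 for Mapk7, 0.00176 for Shisa4, 0.0130 for Trex1, 0.00962 for Dag1, 0.0163 for Ttc17 and 0.0340 for Itpr1). Each of them was counted in at least 3 of the 4 libraries of diabetic dams. Shisa4 stood there at 7.66 and 8.10 CPM in closed tissue, against 7.17 and 2.93 CPM in open tissue, and Mapk7 at 9.47 and 15.6 CPM, against 16.1 and 19.5 CPM.

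Sex-linked genes were split alike in both regions. Xist, which coats and silences the second X of females, had levels of 4.35 and 305 CPM in closed tissue, against 0.10 and 289 CPM in open tissue. The Y-linked Ddx3y stood at 279 and 0.455 CPM, against 204 and 0.848 CPM. Each region thus had 1 library with Xist and 1 with Ddx3y, and with a term for this state edgeR again called 0 genes.

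The regional difference of normal dams was set beside that of diabetic dams, which shares no library with it. The edgeR test of the difference between the 2 contrasts called 0 genes (0%; 440 at an unadjusted p below 0.05, or 3.74%), limma-voom 1 (0.00849%; Pdcd6) and DESeq2 22 (0.187%). Within diabetic dams edgeR also called 0 genes (0%; 327 at an unadjusted p below 0.05, or 2.78%), limma-voom 1 (0.00849%; again Pdcd6, a calcium-binding protein) and DESeq2 47 (0.399%). Across the 3176 genes of at least 50 CPM, Pearson's r between both sets of log2 fold changes was 0.07, and 51.3% had the same sign. Without diabetic open library 13, r was 0.12. That library had 30.2 CPM of Sox2, while its 25 neural progenitor genes summed to 6014 CPM, within the range of the libraries of normal dams. Its sums for other tissues lay above every library of normal dams. They were 2200 CPM for paraxial mesoderm, 560 CPM for endothelium, 329 CPM for heart and 1081 CPM for primitive blood. Surface ectoderm and gut endoderm, at 615 and 224 CPM, were above them too. The part of these tissues in the comparison of dams was not tested. Genes are not independent replicates, and each set of fold changes shares its 4 libraries across all genes.

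Some of the genes named above took the same side in both kinds of dam. Gli1 stood at 340.3 and 384 CPM in diabetic closed tissue (libraries 15 and 16), against 231 and 193 CPM in diabetic open tissue (libraries 13 and 14). Msx1 stood at 1031 and 352 CPM there, against 186 and 66.5 CPM, and Tnfrsf19 at 64.7 and 74.6 CPM, against 25.2 and 13.3 CPM. Sema3a stood at 215 and 55.2 CPM, against 53.5 and 10.7 CPM, and Cdh1 at 121 and 44.1 CPM, against 42.4 and 19.7 CPM. In each of these 5 genes both diabetic closed libraries lay above both diabetic open ones, as in 20.1% of all genes. Over all genes, 3.56% had closed tissue above without overlap in both kinds of dam, and 1.91% had it below. The dorsal and neural crest list had 6 of 27 such genes on the higher side, the Hedgehog list 3 of 20, the surface ectoderm list 3 of 26 and the paraxial mesoderm list 0 of 23.
Others did not. Cdon stood at 78.4 and 129 CPM in diabetic closed tissue, against 127 and 109 CPM in diabetic open tissue, and Pdgfra at 149 and 158 CPM, against 465 and 64.9 CPM. Cks2 stood at 181 and 170.4 CPM there, against 141 and 131 CPM, the reverse of its order in normal dams. Ctnnb1 stood at 79.0 and 90.8 CPM, against 225 and 146 CPM, close to normal open library 10 and far below the other 3 libraries of normal dams. For none of these 4 genes did the edgeR test of the difference between dams pass (adjusted p = 1.00).

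**Figure D4:**
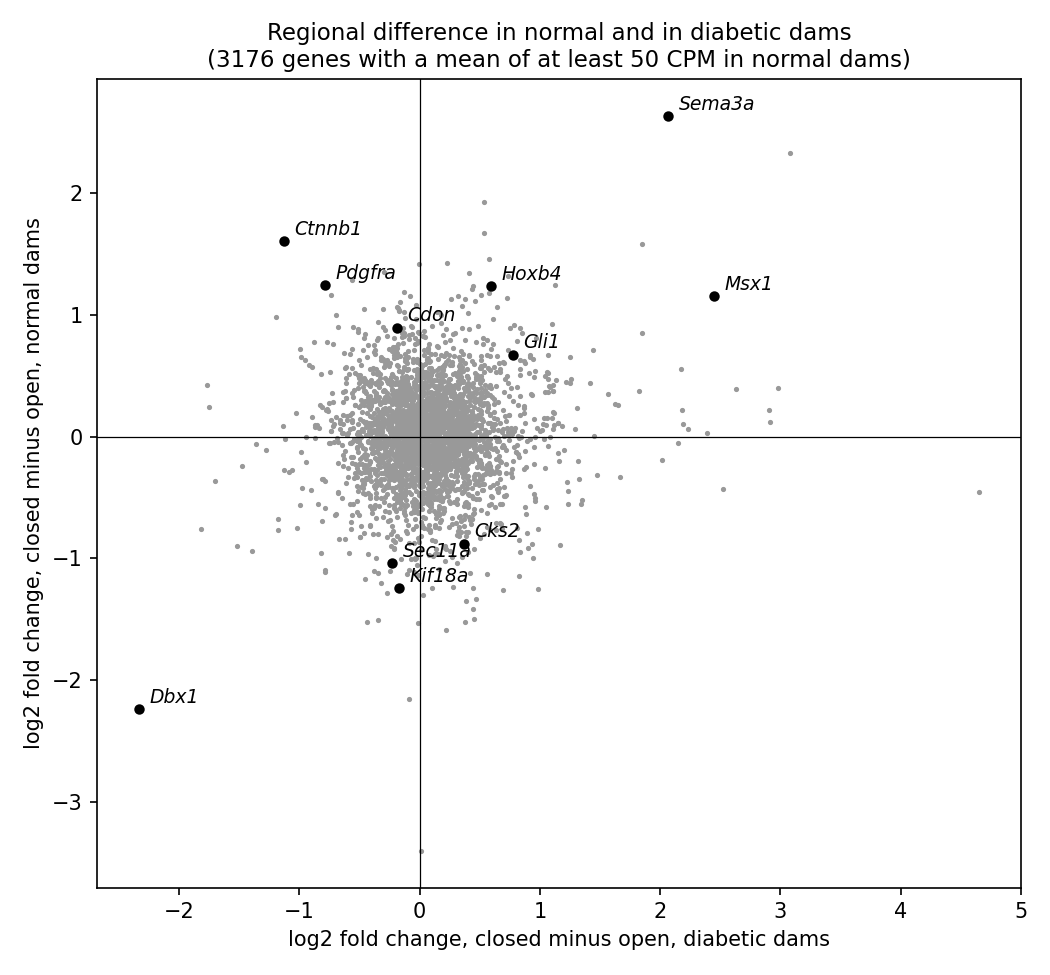
Log2 fold change of closed minus open tissue in normal dams (vertical axis) against the same in diabetic dams (horizontal axis), for 3176 genes with a mean of at least 50 CPM in normal dams, with 11 named genes in black. The cloud has no slope to speak of (r = 0.07), while Gli1, Msx1 and Sema3a lie in the upper right, Dbx1 in the lower left and Ctnnb1 in the upper left quadrant.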

How the data were processed

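Tags were sequenced in 8 libraries, 4 of them from normal dams (2 closed, 2 open). The deposited files hold 1 column of counts per gene, whole numbers that the authors did not normalize. Per the submitters' processing notes, the reads were placed on build mm9. No source used here gives the aligner or the counting rules.

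Counts were fitted in R 4.3.3 with edgeR 4.0.16 (quasi-likelihood test, TMM scaling, filterByExpr with a minimum count of 10 and total of 15) on all 8 libraries in 4 groups, so that they share 1 estimate of the spread. p-values were adjusted over all 11779 tested genes (Benjamini-Hochberg, threshold 0.05). DESeq2 1.42.0 and limma-voom (limma 3.58.1), other scalings, other filters, the 4 normal libraries alone, a term for Xist and leaving out each library were alternatives. The code was tested on simulated data. A group without counts was set to 3 counts over both libraries for a lower bound of a fold; such bounds cover counting error only, and tags are not independent molecules where they stem from amplification.

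Members and gene lists were chosen with earlier results of these data known, so no list count is independent evidence. Named genes are those with the smallest p in each direction, DESeq2's calls, the members of each list with the smallest p or highest level, a fixed set (Pax3, Vangl2, Grhl3, Sox2, Msx1, Gli1, Cdx2, Hoxb1, Egr2, Otx2, Meox1, Cdh1, Xist, Ddx3y) and the widest gaps. Chosen after their values were seen were 2410002F23Rik, Atp11a, Cdh2, Cldn7, Elavl3, Fgf3, Foxc2, Gas1, Gli3, Hand1, Hand2, Krt17, Krt18, Nes, Nkx2-5, Pdcd6, Ptch1, Rfx4, Shh, Slit1, Smo, Stmn2, T, Tulp3, Zic1 and Zic2, and the 5 genes compared between dams and the 4 that did not take the same side were picked likewise. Some results are not reported here.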

Additional observations from a re-analysis of the deposited data

How the results depend on the processing

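Between closed and open tissue of normal dams, edgeR called 0 genes as reported, with RLE or upper-quartile factors, with a mean of at least 1 CPM, with the 4 normal libraries alone and with a term for Xist, and limma-voom called 0. DESeq2 called 33 and edgeR without a filter on low counts 22. Without 1 library the count ran from 0 to 18, and the 18, all higher in closed tissue and Ctnnb1 among them, came without open library 09. For diabetic dams the count was 0 as reported, 47 with DESeq2, 1 with limma-voom, 41 without a filter and 0 to 21 without 1 library. For the difference between dams it was 0 as reported, 22 with DESeq2, 1 with limma-voom, 23 without a filter and 0 to 9 without 1 library. Where leaving out a library left 1 in a group, that library was assumed to vary like the other groups. Genes with a 2-fold gap numbered 473 higher and 179 lower as reported, 291 and 103 with 2 CPM added, 50 and 32 from a mean of 10 CPM, and 3 and 1 from 50 CPM (the last chosen after seeing the data). Without 1 normal library there were 970 to 2047 higher and 660 to 1110 lower, since 1 library is easier to separate from 2. Other scalings and 0.1 CPM kept these counts within 1.5 times. Of 246 named genes, 72 changed the sign of their log2 fold change when 1 library was left out. Under another tool, scaling, filter, set of libraries or covariate, 9 did. Of 144 counts of higher list members without 1 library, 40 stayed within 1.5 times the reported count. Under other scalings it was 103 of 108. Causes of the other shifts were not tested. No paired analysis was possible because the replicate numbers 09 to 16 occur once each.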
